A study of Mus musculus with 8 samples.

Results

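The nuclear genes for oxidative phosphorylation were examined in mouse primary hepatocytes (MPH) under acute endoplasmic reticulum stress (ERS). They were taken by name as the protein-coding GENCODE M21 symbols that begin with Nduf (complex I), Sdha to Sdhd (complex II), Uqcr (complex III), Cox4 to Cox8 (complex IV) or Atp5 (complex V). This gave 93 of the 55304 symbols outside the mitochondrial chromosome, of which 46 belong to complex I, 4 to complex II, 8 to complex III, 18 to complex IV and 17 to complex V. Ndufa4 is counted here in complex I by its prefix, although its product is now placed in complex IV. A region with acetylated lysine 27 of histone H3 (H3K27ac), which marks promoters and enhancers in use, covered a transcription start site (TSS) of 80 of these 93 genes. Over all symbols, 12261 genes had such a region, and the 80 genes are described beside them.

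MPH came from WT adult male C57Bl6 mice (C57BL/6J in the methods of the study) and were kept in serum-free William's medium. They received thapsigargin at 1 µM, which blocks the calcium pump of the endoplasmic reticulum, or the vehicle at 0.04% DMSO, in both cases for 4 h. Each treatment has 3 H3K27ac ChIP-seq libraries from independent experiments and 1 input library, 8 libraries in all. The data analysed here are 3 region lists on mm10, called H3K27ac UP and DOWN (more or less signal after thapsigargin at an FDR of at most 0.05) and H3K27ac unchanged (a higher FDR). The lists give positions alone, with no count, signal or fold change for a region or library, so the depth is unknown and the spread between experiments cannot be given. Regions with a low FDR but mixed bins fall in no list, and a gene without a listed region is therefore not shown to lack H3K27ac. Intervals are 95% Wilson intervals with genes as units and cover counting error alone. Since lists of this kind carry no replicate values, no test was made. The lists held a region at a TSS of 6 of 7 hepatocyte marker genes (all but Cyp2e1) and of 3 of 16 markers of Kupffer, stellate and endothelial cells and cholangiocytes, namely Cd68, Stab2 and Sox9.

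Oxidative phosphorylation takes place in the inner mitochondrial membrane. Complexes I and II feed electrons from NADH and succinate to ubiquinone, complex III passes them to cytochrome c, and complex IV reduces oxygen. The proton gradient built by complexes I, III and IV drives ATP synthesis by complex V. Most subunits are encoded in the nucleus and are expressed in nearly all tissues, at a high level in hepatocytes, and a few subunits of complex IV have isoforms for heart and muscle or for testis. The factors NRF1, GABP (also called NRF2), YY1 and ERRα are known regulators of these genes. The gene of cytochrome c1 and the subunits encoded in mitochondrial DNA are not taken by the prefixes.

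To show the DNA behind the calls, promoters are given for up to 2 genes with a TSS in an UP region per complex, those with the widest regions among genes with a matched window, and for Ndufb10, whose region was the widest among unchanged ones. Each window runs from 250 bases before to 50 bases after a RefSeq start on GRCm38.p6 (the assembly of mm10) and is written 5′ to 3′ on the strand of the gene. Capitals mark exact matches, on either strand, of the motifs GCATGCGC (NRF1), CCGGAAGT (ETS factors such as GABP), AAGATGGCG (YY1), GGGCGGGG (SP1), TGACGTCA (CRE) and TGATGNAAT (the ATF4/CHOP composite), of the box CCAAT, and of the ERSE, which contains that box. The CRE is its own reverse complement, and the NRF1 motif can overlap its reverse complement. The windows are Ndufa6 at chr15:82354242-82354541 (minus strand), Ndufa7 at chr17:33824322-33824621 (plus strand), Sdhb at chr4:140961021-140961320 (plus strand), Sdha at chr13:74350191-74350490 (minus strand), Atp5j at chr16:84835576-84835875 (minus strand), Atp5g1 at chr11:96075582-96075881 (minus strand) and Ndufb10 at chr17:24724374-24724673 (minus strand).
Ndufa6: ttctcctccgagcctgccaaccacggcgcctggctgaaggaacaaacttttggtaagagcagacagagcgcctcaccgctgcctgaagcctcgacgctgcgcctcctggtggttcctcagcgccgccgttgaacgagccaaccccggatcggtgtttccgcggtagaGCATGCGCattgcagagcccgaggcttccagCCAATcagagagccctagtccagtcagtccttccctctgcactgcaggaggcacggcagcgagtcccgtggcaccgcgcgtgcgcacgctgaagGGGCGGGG
Ndufa7: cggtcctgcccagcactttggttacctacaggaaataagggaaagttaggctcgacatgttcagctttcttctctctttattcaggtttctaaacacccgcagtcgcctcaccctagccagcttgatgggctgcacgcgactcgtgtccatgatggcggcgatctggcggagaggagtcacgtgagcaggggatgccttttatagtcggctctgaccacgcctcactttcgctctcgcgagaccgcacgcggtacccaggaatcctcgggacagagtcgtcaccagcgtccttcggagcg
Sdhb: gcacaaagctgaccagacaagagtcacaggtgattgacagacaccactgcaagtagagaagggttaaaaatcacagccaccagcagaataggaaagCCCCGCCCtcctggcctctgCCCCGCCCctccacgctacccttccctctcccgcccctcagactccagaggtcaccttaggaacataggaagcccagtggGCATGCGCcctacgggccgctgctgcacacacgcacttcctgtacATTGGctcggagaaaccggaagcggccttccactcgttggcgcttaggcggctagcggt
Sdha: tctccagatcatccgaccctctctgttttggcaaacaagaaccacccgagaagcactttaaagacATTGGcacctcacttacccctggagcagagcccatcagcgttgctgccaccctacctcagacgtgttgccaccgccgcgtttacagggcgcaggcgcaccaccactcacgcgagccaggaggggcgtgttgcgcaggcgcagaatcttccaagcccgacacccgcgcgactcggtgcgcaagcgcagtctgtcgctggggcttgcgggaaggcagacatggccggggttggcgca
Atp5j: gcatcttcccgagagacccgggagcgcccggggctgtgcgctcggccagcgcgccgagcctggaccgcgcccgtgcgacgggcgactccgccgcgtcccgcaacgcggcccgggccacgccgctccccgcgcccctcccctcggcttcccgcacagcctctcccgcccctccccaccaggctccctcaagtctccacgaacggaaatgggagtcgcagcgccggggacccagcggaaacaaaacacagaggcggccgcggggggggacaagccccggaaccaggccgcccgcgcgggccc
Atp5g1: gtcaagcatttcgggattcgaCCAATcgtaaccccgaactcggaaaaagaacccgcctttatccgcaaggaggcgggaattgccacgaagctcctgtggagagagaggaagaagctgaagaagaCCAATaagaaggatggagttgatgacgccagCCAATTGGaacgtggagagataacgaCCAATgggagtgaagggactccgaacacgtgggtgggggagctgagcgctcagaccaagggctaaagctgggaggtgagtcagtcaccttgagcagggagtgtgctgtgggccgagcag
Ndufb10: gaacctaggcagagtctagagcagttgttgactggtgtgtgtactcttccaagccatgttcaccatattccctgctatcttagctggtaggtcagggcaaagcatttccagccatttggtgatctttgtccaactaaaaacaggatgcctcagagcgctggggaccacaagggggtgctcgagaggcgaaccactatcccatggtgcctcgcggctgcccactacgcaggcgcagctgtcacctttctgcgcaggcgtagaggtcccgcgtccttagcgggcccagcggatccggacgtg

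Of these, Ndufa6 and Sdhb hold the NRF1 motif, from base 168 and from base 197 of their windows. Atp5g1 holds 5 CCAAT boxes, 2 of which overlap on opposite strands. No match was found in the windows of Ndufa7, Atp5j and Ndufb10, which says only that these letters are not there.

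Of the 80 oxidative phosphorylation genes with a region, 12 had a TSS in an H3K27ac UP region (15%, interval from 8.79% to 24.4%), where 21.4% of all 12261 genes did. In a DOWN region, 0 of 80 had a TSS (upper bound 4.58%), where 8.91% of all genes did. Taking both classes, the 12 genes stand beside 29.9% of all genes. The other 68 genes had TSSs in unchanged regions alone, and Ndufa7 had TSSs in an UP and in an unchanged region. In terms of regions, 84 lay at these genes, 12 UP, 0 DOWN and 72 unchanged, and no region was shared by 2 of the genes. The UP regions lay on 11 chromosomes.

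**Figure D1:**
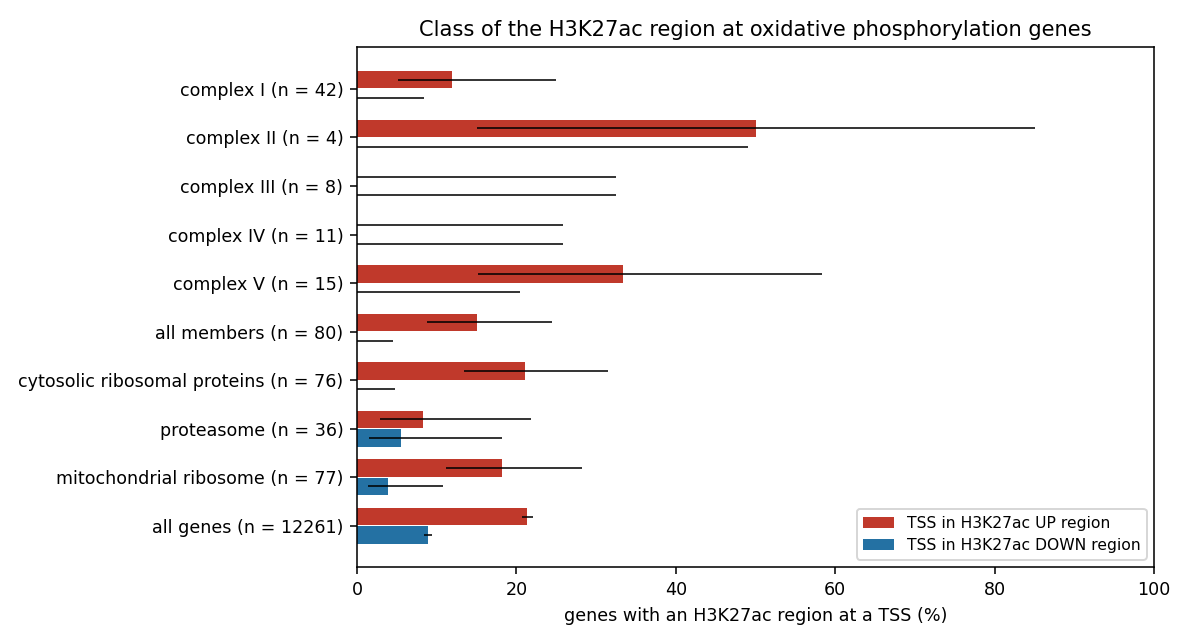
Share of genes with a TSS in an H3K27ac UP (red) or DOWN (blue) region, in percent of genes with any region at a TSS, with n for each group and 95% Wilson intervals as lines. Complexes III and IV had 0 genes at UP regions, and no complex had a gene at a DOWN region, beside 8.91% of all genes.

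The complexes did not have the same counts. UP regions held a TSS of 5 of 42 complex I genes (11.9%, interval from 5.19% to 25%), 2 of 4 complex II genes (50%, from 15% to 85.0%), 0 of 8 complex III genes (upper bound 32.4%), 0 of 11 complex IV genes (upper bound 25.9%) and 5 of 15 complex V genes (33.3%, from 15.2% to 58.3%). Complexes III and IV, the 2 with 0, together had 0 of 19 (upper bound 16.8%), and complexes I, II and V had 12 of 61 (19.7%, from 11.6% to 31.3%). This pooling follows the counts themselves, so its bound adds nothing to the separate ones. All these intervals overlap, and the groups are small. By role in the complex, 5 of 19 core subunits (26.3%, from 11.8% to 48.8%), 6 of 52 accessory subunits (11.5%, from 5.40% to 23.0%) and 1 of 9 assembly factors and related proteins had a TSS in an UP region. Beside these stand 21.4% of all genes. Roles are spread unevenly, since complexes III and IV hold mostly accessory subunits and all 4 complex II genes are core subunits. Within complex I, 1 of 7 core subunits (14.3%) and 5 of 35 structural subunits of any kind (14.3%) had a TSS in an UP region.

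In complex I, the entry point for electrons from NADH, the 5 genes at UP regions are 1 core subunit and 4 accessory subunits. Ndufs1 encodes the largest iron-sulfur core subunit, and 9 of its 13 transcripts start in an UP region of 2294 bp (chr1:63176141-63178434). That region also holds a TSS of Eef1b2, a translation elongation factor. The widest region at any of the genes was that of Ndufa6, an accessory subunit that binds the acyl carrier protein, at 9604 bp (chr15:82345919-82355522). It reaches 1200 bp upstream and 8403 bp downstream of the TSS and also holds a TSS of Smdt1, a regulator of the mitochondrial calcium uniporter. Ndufa7, of the peripheral arm, has 7 of 10 transcript starts in an UP region of 1950 bp (chr17:33823723-33825672) shared with Rps28, a ribosomal protein gene. The 3 remaining starts lie in an unchanged region of 1395 bp (chr17:33828020-33829414). Ndufa11, of the membrane arm, shares its UP region of 1759 bp (chr17:56716474-56718232) with Vmac. For Ndufa2, of the peripheral arm, the UP region of 2260 bp also holds a TSS of Ik, a splicing factor gene.

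The other 6 core subunits of complex I with a region, among them Ndufs3 and the NADH-binding Ndufv1, had unchanged regions alone, as had all 7 assembly factors with a region. Ndufa4, which has a place in complex IV, lay in an unchanged region of 3916 bp. Among the unchanged complex I genes, Ndufb10 had the widest region, 5708 bp (chr17:24718858-24724565), which also holds the TSS of the ribosomal protein gene Rps2. Taking the widest region of each of the 80 genes, the narrowest were also in complex I. They lay at the accessory subunit genes Ndufb8 (557 bp), Ndufa9 (621 bp) and Ndufa3 (634 bp).

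Complex II, or succinate dehydrogenase, has 4 subunits. Both catalytic subunits had UP regions, and both membrane anchors had unchanged ones. Sdhb, the iron-sulfur subunit, has all 3 transcript starts in an UP region of 3316 bp (chr4:140960133-140963448) with no TSS of another gene. Sdha, the flavoprotein that oxidises succinate, has 6 of 9 starts in an UP region of 1086 bp (chr13:74349716-74350801), the narrowest of the 12, which also holds a TSS of Ccdc127. Sdhd lay in an unchanged region of 3619 bp with Timm8b, and Sdhc in one of 1300 bp. In order of width, UP and unchanged regions alternated among the 4 genes, and the part of width in these calls was not tested.

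In complexes III and IV, every gene with a region had unchanged regions alone. The 8 complex III genes include Uqcrfs1, the Rieske iron-sulfur protein (1497 bp), the core proteins Uqcrc1 (739 bp) and Uqcrc2, and the hinge protein gene Uqcrh. At 4359 bp, the Uqcrh region (chr4:116074328-116078686), shared with Lrrc41, was the second widest unchanged region. The 11 genes with a Cox prefix had regions from 637 bp (Cox5b) to 2674 bp (Cox7a2), and their median width of 1250 bp was the lowest of the 5 complexes.

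For complex V, the ATP synthase, the 5 genes at UP regions come from several parts of the enzyme. Atp5j, the peripheral stalk subunit F6, has 10 of 12 transcript starts in an UP region of 5385 bp (chr16:84833837-84839221). The same region holds the TSS of Gabpa, which encodes the DNA-binding subunit of GABP, and it extends 3596 bp upstream of Atp5j, on the side of Gabpa. Atp5f1, subunit b of the stalk, has 4 of 6 starts in an UP region of 1703 bp (chr3:105958501-105960203) with Wdr77. Atp5c1, the gamma subunit of F1, lies in one of 1873 bp (chr2:10079262-10081134) with Kin. Atp5g1 is 1 of 3 genes for the same c-ring subunit, and all 4 of its starts lie in an UP region of 2624 bp (chr11:96073862-96076485) without a TSS of another gene. Of the other c-ring genes, Atp5g2 had an unchanged region of 4289 bp and Atp5g3 had no region at a TSS. Atp5s, coupling factor B, is a related protein rather than a stable subunit, and its UP region of 2585 bp (chr12:69723568-69726152) holds all 5 of its transcript starts. The remaining F1 subunits Atp5a1, Atp5b, Atp5d and Atp5e had unchanged regions alone.

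**Figure D2:**
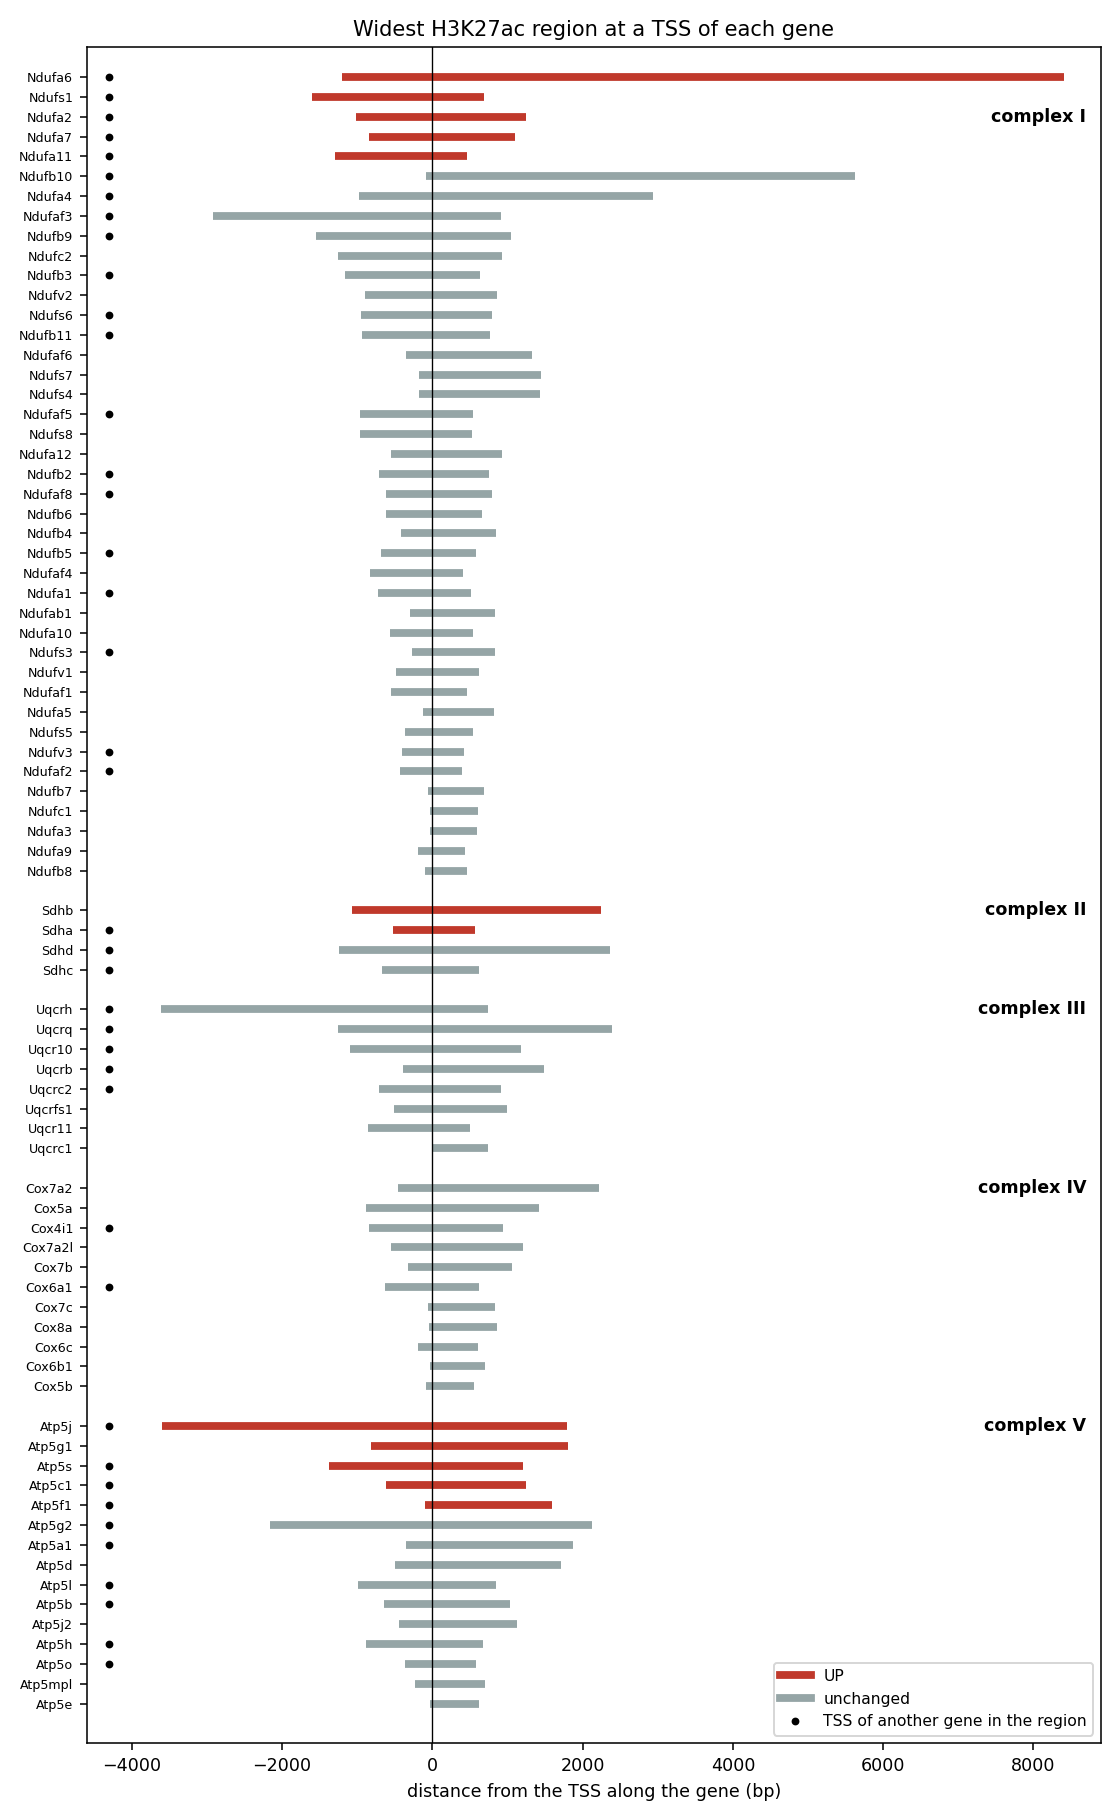
Extent of the widest H3K27ac region at a TSS of each gene shown, in bp from the TSS along the direction of the gene, by complex, with UP regions in red, unchanged regions in grey and a black dot where the region holds a TSS of another gene. Of the 12 UP regions, 10 carry a dot and those of Sdhb and Atp5g1 do not.

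The regions at these genes were narrower in the median than those at all genes. Their median width was 1531 bp (quartiles 1095 and 2188 bp, range 557 to 9604 bp), where that of all genes with a region was 1850 bp. It was 1444 bp in complex I, 2308 bp in complex II, 1753 bp in complex III, 1250 bp in complex IV and 1836 bp in complex V. Over all genes, cut into 10 deciles of width, the UP share was 9.28% in the narrowest decile and 28.5% in the widest, and the DOWN share was 1.30% and 31.7%. The shares of all genes in the same deciles would give 15.8 of the 80 genes at UP regions and 4.47 at DOWN regions, beside the 12 and 0 found. The same figures for UP were 7.98 beside 5 in complex I, 0.890 beside 2 in complex II and 1.77 beside 0 in complex III. They were 1.90 beside 0 in complex IV and 3.21 beside 5 in complex V.

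UP calls at these genes lay mostly at the wider regions. In the 5 narrower deciles, 3 of 56 genes lay at an UP region (5.36%), where 15.9% of all genes did. In the 5 wider deciles the count was 9 of 24 (37.5%), beside 26.8% of all genes. The median width was 2277 bp for the 12 genes at UP regions and 1444 bp for the 68 at unchanged regions alone. For all genes at UP regions it was 2298 bp, close to that of the 12, and for all genes with a region 1850 bp.

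**Figure D3:**
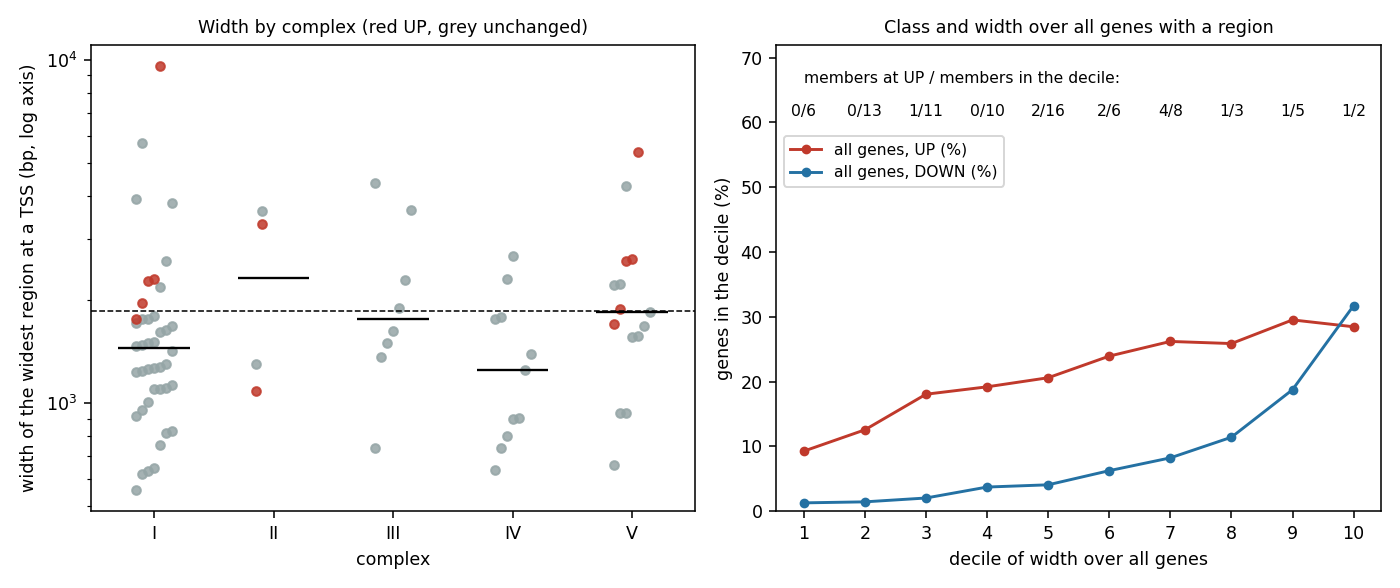
Left, width in bp (log axis) of the widest region at a TSS of each gene by complex, with UP genes in red, unchanged genes in grey, medians as solid lines and the median of all genes (1850 bp) as a dashed line. Right, UP and DOWN share in percent of all genes by decile of width, with the oxidative phosphorylation genes at UP regions over those in the decile written above, of which 9 of 24 lie in the wider 5 deciles and 3 of 56 in the narrower.

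Most UP regions at these genes were shared with a neighbouring gene. The region held a TSS of another coding gene for 10 of the 12 genes at UP regions (83.3%), and for 23 of the 68 genes at unchanged regions alone (33.8%). That share was 35.7% for all genes at UP regions and 31.0% for all genes with a region. For 9 of the 12 genes the partner starts within 1 kb on the opposite strand, and for Ndufa6 it does not. Such divergent coding partners were found for 32 of the 80 genes (40.0%) and for 23.1% of all genes. H3K27ac has no strand, so the signal of a shared region cannot be assigned to either gene.

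Split by sharing, 10 of the 40 genes whose region held a TSS of another gene lay at UP regions (25%, interval from 14.2% to 40.2%), beside 24.4% of all such genes. Of the 40 genes whose region held no other TSS, 2 lay at UP regions (5.0%, from 1.38% to 16.5%), Sdhb and Atp5g1, beside 19.2% of all such genes. The former 40 had a median region width of 1786.5 bp and the latter 1251.5 bp, where all genes had 2212 and 1610 bp. Given their widths, 8.94 and 6.81 of the 40 genes would be at UP regions by the shares of all genes. The part of width and of the partner genes in this difference was not tested.

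**Figure D4:**
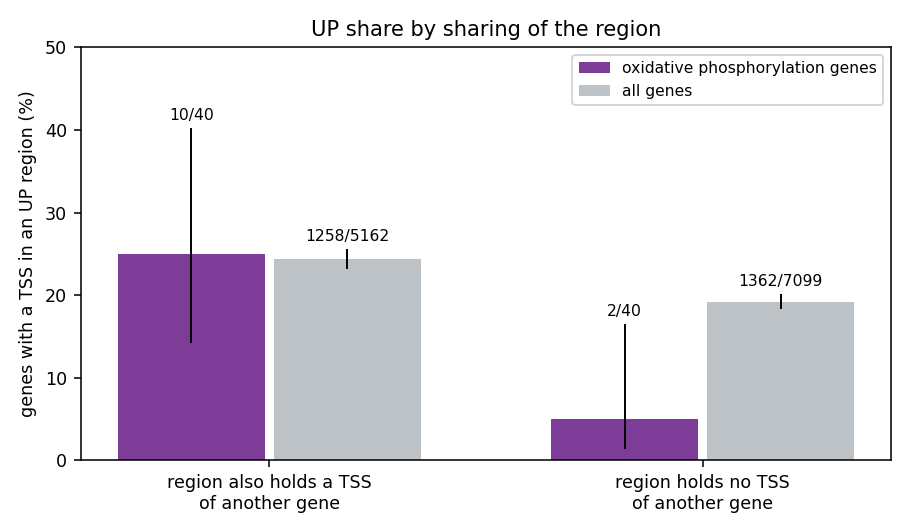
Share of genes with a TSS in an UP region, in percent, for oxidative phosphorylation genes (purple) and all genes (grey), by whether the region also holds a TSS of another gene. Counts are written above the 95% Wilson intervals. The shares are 25% and 24.4% at shared regions and 5.0% and 19.2% at the others.

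Most of the 13 genes without a region at a TSS were isoforms for other tissues or states. All 8 such isoforms lacked one, namely Cox6a2, Cox7a1 and Cox8b of heart and muscle, Cox6b2, Cox7b2 and Cox8c of testis, Cox4i2 of lung and hypoxia, and the hypoxia-induced Ndufa4l2. Their nearest TSS lay from 1266 bp (Ndufa4l2) to 495091 bp (Cox7b2) from the nearest region. The liver or common counterparts Cox4i1, Cox6a1, Cox6b1, Cox7a2, Cox7b and Cox8a all had unchanged regions. Of the other 85 genes, 80 had a region at a TSS and 5 did not. For 4 of these 5 the nearest region was under 1 kb away, at 10 bp for Atp5k, 42 bp for Ndufa8, 75 bp for the assembly factor gene Ndufaf7 and 526 bp for Ndufa13. The region next to Ndufaf7 was UP and those next to the other 3 were unchanged. Atp5g3, the fifth, lay 16847 bp from a region.

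Distal regions were counted near the same genes. A distal region has no TSS in it or within 1 kb. A distal UP region lay within 50 kb of a TSS for 13 of the 80 genes (16.3%, interval from 9.75% to 25.8%), beside 25.2% of all genes with a region. For distal DOWN regions it was 7 of 80 (8.75%, from 4.30% to 17.0%), beside 19.3%, and for distal unchanged regions 38 of 80 (47.5%), beside 66.3%. At 50 kb the interval for UP includes the share of all genes, and that for DOWN does not. Within 10 kb the reverse held. Both shares were 1.25% (from 0.221% to 6.75%), beside 8.69% of all genes for UP and 6.14% for DOWN. Within 100 kb both intervals include the share of all genes. The median number of other coding genes with a TSS within 50 kb was 3 for these genes and 2 for all genes, and its part in these shares was not tested. Among the 12 genes at UP regions, Ndufa2 had 2 distal UP regions and Ndufa11, Atp5c1 and Atp5j had 1 each, and the other 8 had 0. Ndufa11 also had 1 distal DOWN region. Uqcrh and Ndufaf6, at unchanged regions, had 2 distal UP regions each.

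Promoter windows of 300 bases were matched for 64 of the 80 genes and for 7802 of all genes with a region. The windows of the 64 genes had a median GC content of 58.2% and a ratio of observed to expected CpG of 0.833, beside 61.7% and 0.804 for all genes. Exact matches of the NRF1 motif on either strand lay in 10 of the 64 windows (15.6%, interval from 8.71% to 26.4%), beside 6.09% of all. The YY1 motif lay in 7 (10.9%, from 5.40% to 20.9%), beside 3.91%, and the CRE in 4 (6.25%), beside 3.90%. The ETS motif lay in 5 (7.81%), beside 10.1%, the CCAAT box in 28 (43.8%), beside 37.4%, and the SP1 motif in 11 (17.2%, from 9.88% to 28.2%), beside 34.2%. Of the motifs of the stress response, neither the ATF4/CHOP composite nor the ERSE lay in any of the 64 windows (upper bound 5.66%), beside 0.474% and 0.192% of all. At these background shares, less than 1 match would be found in 64 windows. With windows from 500 bases before to 100 after the start, the CCAAT share was below that of all genes (51.6% beside 54.1%). The NRF1, YY1, CRE, ETS and SP1 shares kept their direction.

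By class, the NRF1 motif lay in 3 of the 8 matched windows of genes at UP regions (Ndufa6, Ndufa11 and Sdhb) and in 7 of the 56 at unchanged regions (Atp5g2, Atp5l, Cox6a1, Ndufaf4, Ndufaf5, Uqcr11 and Uqcrc1). These NRF1 shares have intervals from 13.7% to 69.4% and from 6.19% to 23.6%, which overlap. The YY1 motif lay in 0 of 8 (upper bound 32.4%) and in 7 of 56 (from 6.19% to 23.6%), of which 6 were complex I genes. Genes at UP regions without a matched window are Ndufs1, Ndufa2, Atp5f1 and Atp5s. A match is a run of letters and not a bound site.

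**Figure D5:**
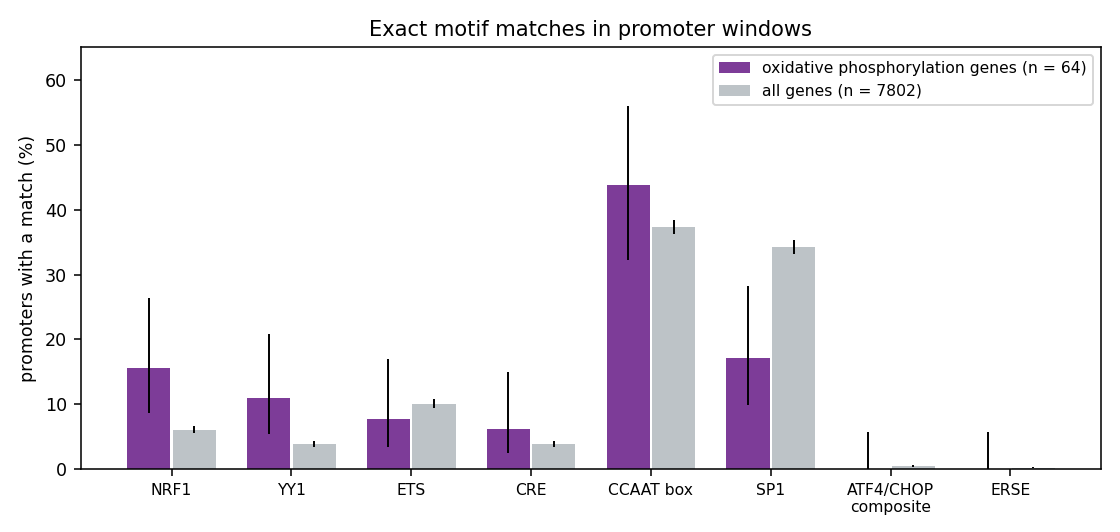
Share of promoter windows with at least 1 exact motif match on either strand, in percent, for 64 oxidative phosphorylation genes (purple) and 7802 genes in all (grey), with 95% Wilson intervals. NRF1 (15.6% and 6.09%) and YY1 (10.9% and 3.91%) matched a larger share of the oxidative phosphorylation genes, SP1 a smaller one (17.2% and 34.2%).

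Other genes of the pathway were counted in the same way. Of 37 genes for assembly factors and the maturation of the complexes outside the prefixes, 35 had a region, 27 of them unchanged, 0 DOWN (8.91% of all genes) and 8 UP. The UP share of 22.9% (interval from 12.1% to 39.0%) was near the 21.4% of all genes. The 8 are the copper chaperone gene Sco1 (8839 bp), Cox20 (6225 bp), Cox19 (5421 bp), Coa3 (2088 bp) and Coa5 (2100 bp), which serve complex IV, Foxred1 (2392 bp) for complex I, Bcs1l (1535 bp) for complex III and Atpaf2 (1885 bp) for complex V. Sdhaf1 and Acad9 had no region. Of the 5 electron carrier genes, Etfdh, which passes electrons from fatty acid and amino acid oxidation to ubiquinone, lay in a DOWN region (2394 bp, chr3:79627024-79629417). It was the only 1 of the 50 assembly, carrier and regulator genes with a region to do so, beside 8.91% of all genes. Cycs, Etfa and Etfb were unchanged and Cyct, the testis cytochrome c, had no region. Of 12 regulators, Gabpa (in the region of Atp5j), Tfb1m (1485 bp), Tfb2m (2065 bp) and Pprc1 had a TSS in an UP region, 4 of the 11 with a region (36.4%, from 15.2% to 64.6%, beside 21.4% of all genes). Nrf1, Gabpb1, Tfam, Polrmt, Ppargc1b, Esrra and Yy1 were unchanged, Pprc1 also had an unchanged region, and Ppargc1a had none.

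Compared with the subunits of other large complexes, the absence of DOWN calls was shared by 1 group. Of all genes with a region, 21.4% had a TSS in an UP region and 8.91% in a DOWN region. Cytosolic ribosomal proteins had 16 of 76 genes at UP regions (21.1%, interval from 13.4% to 31.5%) and 0 at DOWN regions (upper bound 4.81%). Their regions were wider (median 2058.5 bp). Proteasome genes (Psma to Psmd) had 3 of 36 at UP regions (8.33%, from 2.87% to 21.8%) and 2 at DOWN regions (5.56%, from 1.54% to 18.1%). Mitochondrial ribosome genes had 14 of 77 at UP regions (18.2%, from 11.2% to 28.2%) and 3 at DOWN regions (3.90%, from 1.33% to 10.8%). Their median width was 1129 bp. By the shares of all genes of like width, 6.51, 2.10 and 2.95 genes would be at DOWN regions in these groups, in the order named. The UP share of the oxidative phosphorylation genes (15%) lay between those of the proteasome and the mitochondrial ribosome. For UP and for DOWN alike, the intervals of all 4 groups overlap.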

How the data were processed

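H3K27ac ChIP-seq of MPH was compared between thapsigargin and DMSO. Per the labels and the methods of the study, the authors mapped reads to mm10 with Bowtie, called broad peaks on pooled libraries with MACS2, counted reads, extended to 200 bp, per 150 bp bin, discarded bins at input level, normalized by loess and tested bins with csaw in a paired model. The deposited lists hold UP and DOWN regions (FDR at most 0.05, ratio of UP to DOWN bins at least 2 or at most 0.5) and unchanged regions, as start and end positions without counts or p-values.

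Of the 32196 regions, 10642 held a TSS of any of 141730 GENCODE M21 transcripts, and a gene was assigned to each region that held one of its TSSs. Width deciles were cut over all genes with a region. Promoters came from a RefSeq table (GRCm38.p6), matched by symbol, with 0 differing from the genome. Genes named were all with a changed region or none, and the 3 widest and 3 narrowest unchanged regions, by the widest region of each gene. The gene set and lists were chosen with earlier results of these data known, although the prefixes themselves use no measured value. Some genes are counted but not named or drawn here. Counting functions were tested on simulated data. The alternatives were other TSSs, overlaps, widths, members, backgrounds, distances and promoter windows. Depth is unknown, and intervals cover counting error alone. Python 3.11.15, numpy 2.4.6, scipy 1.17.1, pysam 0.24.0 and matplotlib 3.10.9 were used.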

Additional observations from a re-analysis of the deposited data

How the results depend on the processing

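Over 67 alternative values, 60 stayed within the interval of the reported value or within a wide range set around it. For the 15.8 UP genes given by width, that range was from 10.5 to 23.6. The DOWN count stayed at 0 in every alternative run. Apart from the run on regions that hold no TSS of another gene, the UP share was from 12.9% to 21.2%. The share of all genes moved with the setting and was 9.69% beside the 12.9% and 24.3% beside the 21.2%. Alternatives that narrow the assignment or change the background or unit could not add a DOWN gene. Taking regions within 1 kb of a TSS could, and gave 0 of 84. With regions that hold no TSS of another gene, the UP share moved to 5.0% and its ratio to the share of all genes from 0.702 to 0.261. With all annotated protein-coding genes as background, genes without a region included, the ratio was 1.33. Genes with a distal UP region were 1.25% within 10 kb and 31.3% within 100 kb, and with a distal DOWN region 1.25% and 23.8%; all genes had 8.69%, 38.0%, 6.14% and 29.7%. No paired analysis was possible because the lists hold no values per library. For the same reason no library could be left out, and the authors' peak calls, normalization and FDR could not be varied. Groups of 4 to 15 genes give wide intervals, and shared regions limit what a call says of 1 gene.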

Other observations

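Ndufs7, a complex I core subunit gene (1627 and 747 bp), and Cox7a2l, a supercomplex factor gene (1752 and 1550 bp), each had TSSs in 2 separate regions, both unchanged. Of the 13 genes without a region at a TSS, 0 had a distal UP region within 50 kb (95% Wilson upper bound 22.8%, beside 25.2% of all genes with a region). A distal DOWN region lay near 4 of the 13 (30.8%, interval from 12.7% to 57.6%, beside 19.3%), namely Cox4i2 (2 regions), Ndufa8, Ndufa13 and Ndufaf7 (1 region each).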
